A study of Mus musculus with 12 samples.

Results

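Rev-Erba binding was listed at 6 sites across the neighbouring genes Nr1d1 and Thra in brown adipose tissue of mice kept in the cold. Nr1d1 encodes the nuclear receptor Rev-Erba itself, and Thra encodes the thyroid hormone receptor alpha. The members were all peaks of the study's lists whose annotated gene was Nr1d1 or Thra, on mouse chromosome 11. They came to 9 of 13410 peaks: 6 of 11227 in the 4 °C list (4 at Nr1d1 and 2 at Thra) and 3 of 2183 in the 29 °C list (2 at Nr1d1 and 1 at Thra). The 3 peaks of the 29 °C list overlapped 3 of the 6 in the 4 °C list, so that 6 separate sites remained.

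The binding was measured by chromatin immunoprecipitation and sequencing with anti-HA magnetic beads. The chromatin came from the brown fat, a tissue that burns fuel for heat, of C57BL/6 mice. HA-RevErba mice, whose Rev-Erba carries an HA epitope tag, gave 4 libraries after chronic cold at 4 °C and 4 after thermoneutrality at 29 °C, the temperature at which mice need no extra heat production. WT mice, which lack the tag, went through the same pull-down and gave 2 libraries at 4 °C and 2 at 29 °C. All mice spent 1 week at their temperature. The labels tell neither how the tag was introduced nor the age of the mice nor the hour of tissue collection. Nor do they state that each library is a separate animal. The aligned reads of a library ran from 27.0 to 37.3 M (mega).

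All binding values were made by the authors on pools, 1 pool for each genotype and temperature, so none has a spread between libraries and no test between temperatures could be made. Values are FPKM, which for these peaks means reads by window length (200 bp) and pool size, not a level of transcript. The pools held 63.8 M (HA-RevErba 4 °C), 60.8 M (HA-RevErba 29 °C), 27.1 M (WT 4 °C) and 25.1 M (WT 29 °C) reads, recovered from the steps of the FPKM values. Ratios are given with exact 95% Clopper-Pearson intervals unless stated otherwise. All intervals cover counting error only. Fewer cells of a type and less binding per cell cannot be told apart in whole tissue. Chromatin reads do not measure expression, so the tissue could not be checked by its markers. A 4 °C peak was assigned to 7 of 8 brown adipocyte markers (not Prdm16), 3 of 3 endothelial, 1 of 3 skeletal muscle and 0 of 3 macrophage markers. A 29 °C peak was assigned to 2 brown adipocyte, 2 endothelial, 0 skeletal muscle and 0 macrophage markers. Of all protein-coding genes, 20.9% had a 4 °C peak and 6.05% a 29 °C peak, so the muscle and macrophage counts lie near the share of all genes.

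Rev-Erba is a repressor of the circadian clock that competes with the activating ROR receptors for the same DNA elements and recruits the corepressor NCoR1 with the histone deacetylase HDAC3. It also binds the promoter of its own gene, which in human cells was traced to a pair of receptor motifs in the same direction near the start of transcription. Nr1d1 and Thra lie on opposite strands and point at each other, and the end of the Nr1d1 transcript overlaps that of a splice variant of Thra. In brown fat, thyroid hormone receptors and Rev-Erba both act on heat production.

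The promoter sequence of Nr1d1 is shown because the strongest of the 6 sites lay on it. It was taken from RefSeq on build GRCm38.p6, minus strand, chr11:98775328-98775627, and runs 5′ to 3′ with 250 bases before the start of the transcript and 50 from the start on. Capitals mark the stretch closest to a DR2, that is, a direct repeat of the receptor motif AGGTCA, or its form GGGTCA, with 2 bases between.
Nr1d1 promoter: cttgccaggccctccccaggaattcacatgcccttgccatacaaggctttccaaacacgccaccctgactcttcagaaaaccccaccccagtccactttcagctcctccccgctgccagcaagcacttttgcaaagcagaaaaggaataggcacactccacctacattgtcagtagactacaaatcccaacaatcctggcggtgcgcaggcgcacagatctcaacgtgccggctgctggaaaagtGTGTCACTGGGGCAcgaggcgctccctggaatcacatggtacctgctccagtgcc

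The marked stretch ran from position -5 to 8, with position 0 the RefSeq start, and differed from the DR2 at 2 of its 12 fixed bases. A match at least as close on either strand was found in 8.45% of 32851 promoter windows of the same length, and in 10.8% of the 481 windows of genes with a promoter peak in the 4 °C list. Looking for a closest match was decided after the sequence had been seen. On either strand the window held no exact AGGTCA and no exact GGGTCA, and so neither an exact DR2 nor the ROR element AANTAGGTCA. The E-box CACGTG was not in it. Of all promoter windows, AGGTCA was in 16.3%, GGGTCA in 13.7%, the exact DR2 in 0.0396%, the ROR element (which contains AGGTCA) in 0.219% and the E-box in 7.15%. The peaks are given on build mm9, so their exact place within this sequence was not determined. The authors' annotation puts the centre of the 4 °C peak at the start site of Nr1d1 (distance 0) and that of the 29 °C peak 10 bp from it.

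Along the chromosome the 6 sites formed a row of 37.6 kb, from the first intron of Thra to the region upstream of Nr1d1. Positions are those of the authors' files on mm9. The site in Thra intron 1 (chr11:98607321-98607521) lay 4.32 kb from the Thra start site. The site in Thra intron 2 (chr11:98616249-98616449) followed 8.93 kb further on. Then came, after 10.7 kb, a site at the annotated end of the Thra transcript (chr11:98626912-98627112). Its annotated gene is Nr1d1, and its centre is 9.68 kb from the Nr1d1 start site and 23.9 kb from that of Thra. The site in Nr1d1 intron 1 (chr11:98635042-98635242) was another 8.13 kb along, and the Nr1d1 promoter site (chr11:98636591-98636791) 1.55 kb beyond it. The last site, annotated as intergenic, lay 8.14 kb upstream of the Nr1d1 start site (chr11:98644731-98644931). The start sites of the genes were 33.6 kb apart.

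**Figure D1:**
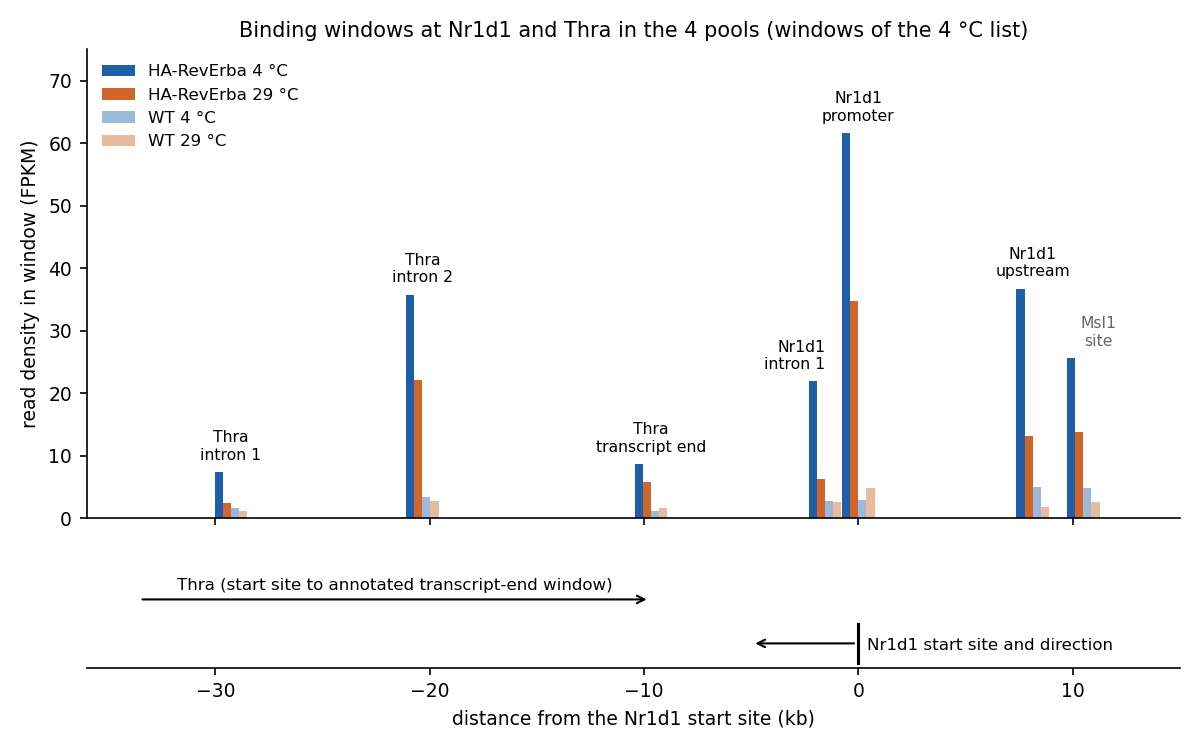
Read density (FPKM) of the 4 pools in each window of the 4 °C list, by distance in kb from the Nr1d1 start site; the bars of a site are drawn side by side and are wider than the 200 bp window, and the site named in grey belongs to the neighbouring gene Msl1. The Nr1d1 promoter window is the highest in both HA-RevErba pools (61.57 FPKM at 4 °C and 34.80 at 29 °C), and the Thra intron 1 window is the lowest (7.38 and 2.48).

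At the Nr1d1 promoter HA-RevErba binding was 61.57 FPKM in the cold and 34.80 at thermoneutrality, where WT had 2.96 and 4.79. These values rested on 785 and 423 HA-RevErba reads and on 16 and 24 WT reads. Both HA-RevErba pools were high and both WT pools low. By the authors' peak score, which grows with the reads in the window, this was site 7 of the 11227 at 4 °C (score 123.1) and site 13 of the 2183 at 29 °C (score 69.6). The 4 °C to 29 °C ratio was 1.77 (1.57 to 2.0), or 0.82 on the log2 scale. With WT reads over the windows of the 29 °C list set equal it was 1.04, with an interval that included 1 (0.920 to 1.17). All peaks of that list exceed WT at 29 °C, and its median WT was 1.48 FPKM at 4 °C and 0.81 at 29 °C. In the 4 °C list, whose peaks all exceed WT at 4 °C, these medians were 1.12 and 1.21. The part of the choice of peaks in this scaling was not tested. Scaled by the aligned reads of the libraries, the ratio was 1.79 (1.59 to 2.02). Over WT, HA-RevErba reads were 20.9-fold higher at 4 °C (12.8 to 36.7) and 7.27-fold higher at 29 °C (4.82 to 11.5). The WT 29 °C value was rank 3 among the WT 29 °C values of all 11227 windows of the 4 °C list.

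In intron 1 of Nr1d1, 1.55 kb inside the gene, HA-RevErba binding was 21.89 FPKM in the cold and 6.26 at thermoneutrality, where WT had 2.77 and 2.60. The 29 °C pool was below the 4 °C pool but above WT. The ratio of 3.50 (2.71 to 4.57) was the largest of the 6. The site ranked 333 by score in the 4 °C list and had no peak at 29 °C. At their own temperature all peaks of a list exceeded WT by at least 3 FPKM and about 4 times (lowest folds 3.99 in the 4 °C list and 3.97 in the 29 °C list). At 29 °C this window exceeded WT by 3.66 FPKM, but at 2.41 times WT it was below the lowest fold of the 29 °C list. Why it had no 29 °C peak was not tested, since the settings of the peak calling are not stated.

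The upstream site of Nr1d1, rank 64 at 4 °C with a score of 73.4, had HA-RevErba binding of 36.71 FPKM in the cold and 13.09 at thermoneutrality, where WT had 4.99 and 1.80. The HA-RevErba ratio was 2.81 (2.34 to 3.38). Here the WT pools differed in the same direction, with 27 reads in the cold and 9 at thermoneutrality and a ratio of 2.77 (1.27 to 6.70). The WT 4 °C value was rank 4 among all 11227 windows. HA-RevErba reads were 7.38-fold (5.0 to 11.3) over WT at 4 °C and 7.29-fold (3.74 to 16.2) at 29 °C. The part of the WT background in the HA-RevErba ratio at this site was not tested. The 29 °C peak of the site was centred 103 bp closer to Nr1d1 and overlapped the 4 °C peak by 97 bp. In that window HA-RevErba had 35.14 FPKM in the cold and 15.72 at thermoneutrality, WT had 4.43 and 1.21, and the HA-RevErba ratio was 2.24 (1.88 to 2.66).

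The site at the end of the Thra transcript was weaker, with 8.64 FPKM in the cold and 5.85 at thermoneutrality for HA-RevErba, where WT had 1.12 and 1.60. Its score of 17.3 was rank 3994 at 4 °C, above the list's median of 14.1. The ratio of 1.48 (1.09 to 2.02) was the smallest of the 6, and was below 1 (0.866) when WT reads over the windows of the 29 °C list were set equal. The site was in the 4 °C list only, yet at 29 °C it exceeded WT by 4.25 FPKM and 3.66 times, just under the folds seen in that list.

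In intron 2 of Thra HA-RevErba binding was 35.77 FPKM in the cold and 22.05 at thermoneutrality, where WT had 3.33 and 2.80. It ranked 70 by score at 4 °C and 74 at 29 °C. The ratio was 1.62 (1.39 to 1.89), or 0.951 with WT reads over the windows of the 29 °C list set equal. HA-RevErba reads were 10.8-fold (6.74 to 18.4) over WT at 4 °C and 7.90-fold (4.63 to 14.6) at 29 °C. This binding site within the thyroid hormone receptor gene had, in both pools, more than 4 times the density of the site in intron 1. That one had 7.38 FPKM in the cold and 2.48 at thermoneutrality, where WT had 1.67 and 1.21, with a ratio of 2.99 (1.96 to 4.67). At 29 °C it exceeded WT by 1.27 FPKM and 2.05 times, both below the lowest values of the 29 °C list (3.01 FPKM and 3.97 times). At 4 °C, with 4.42 times WT, it was close to the lowest fold of the 4 °C list (3.99). Neither peak assigned to Thra lay at its start site, the nearer being 4.32 kb away.

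Over WT, HA-RevErba signal was higher in each of the 6 windows at both temperatures, and only at Thra intron 1 at 29 °C did the interval include 1 (2.06, 0.845 to 6.06). In the windows of the 4 °C list the fold was larger at 4 °C at all 6 sites, by 1.01 times at the upstream site (0.466 to 2.20). In its 29 °C window the upstream site turned, with 7.94-fold over WT at 4 °C and 13.1-fold at 29 °C, 0.605 times (0.243 to 1.50). In the 4 °C windows the 4 °C to 29 °C ratio of the fold had a counting interval above 1 (on a log scale, assuming Poisson reads) at Nr1d1 intron 1 (3.28, 1.5 to 7.19) and at the promoter (2.87, 1.51 to 5.46). At the other 4 sites the interval included 1. Since all peaks of a list exceed WT at its temperature, a larger fold at that temperature is favoured in its windows. The share of all windows with a larger fold at 4 °C, or with such an interval, was not determined. These folds are therefore a description.

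**Figure D2:**
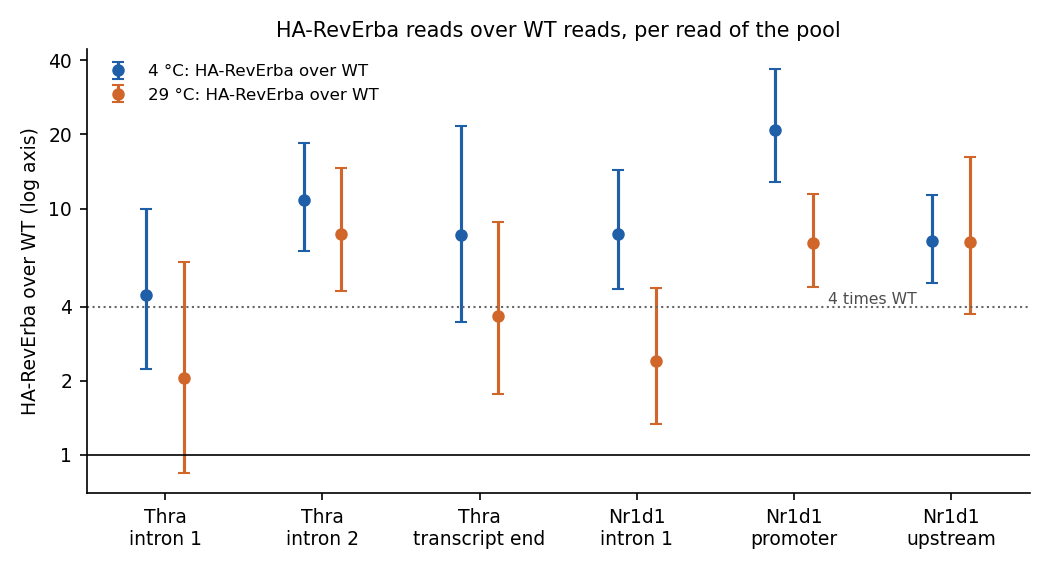
HA-RevErba reads over WT reads per read of the pool (log axis) at each site, at 4 °C and 29 °C; bars are exact 95% counting intervals, and the dotted line marks 4 times WT. The promoter stands at 20.9 at 4 °C and 7.27 at 29 °C, while the upstream site stands at 7.38 and 7.29.

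The ratio between the temperatures was not alike at all sites. All 6 had a 4 °C to 29 °C interval above 1, and so did 95.4% of the windows of that list, which are peaks at 4 °C. With WT reads over the windows of the 29 °C list set equal, which divides all ratios by 1.71, 3 of the 6 kept an interval above 1. Thra intron 2 (0.951) and Thra transcript end (0.866) were then below 1 and the promoter at 1.04, all with intervals that included 1. With WT reads over shared windows set equal, 4 of the 6 kept an interval above 1. All 6 kept it when scaled by aligned reads or by WT reads over the windows of the 4 °C list. The share of all windows under these scalings was not determined. Per read of the pool, a ratio of at least 2 was reached by 3 of the 6, against 83.4% of all windows. The median ratio was 2.29 over the 6 sites and 3.05 over all windows (10th to 90th percentile, 1.73 to 5.76). Thra transcript end, Thra intron 2 and the Nr1d1 promoter were at the 5.43rd, 7.77th and 10.8th percentile, and Nr1d1 upstream, Thra intron 1 and Nr1d1 intron 1 at the 42.2nd, 48.2nd and 62.5th. These percentiles take in windows of all strengths. In the 337 windows with a score of at least 43.8 the median ratio was lower, 2.14 (10th to 90th percentile, 1.38 to 3.51). The promoter (1.77) and Thra intron 2 (1.62) lay between these percentiles. All 3 windows of the 29 °C list also had intervals above 1, as did 66.8% of that list.

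**Figure D3:**
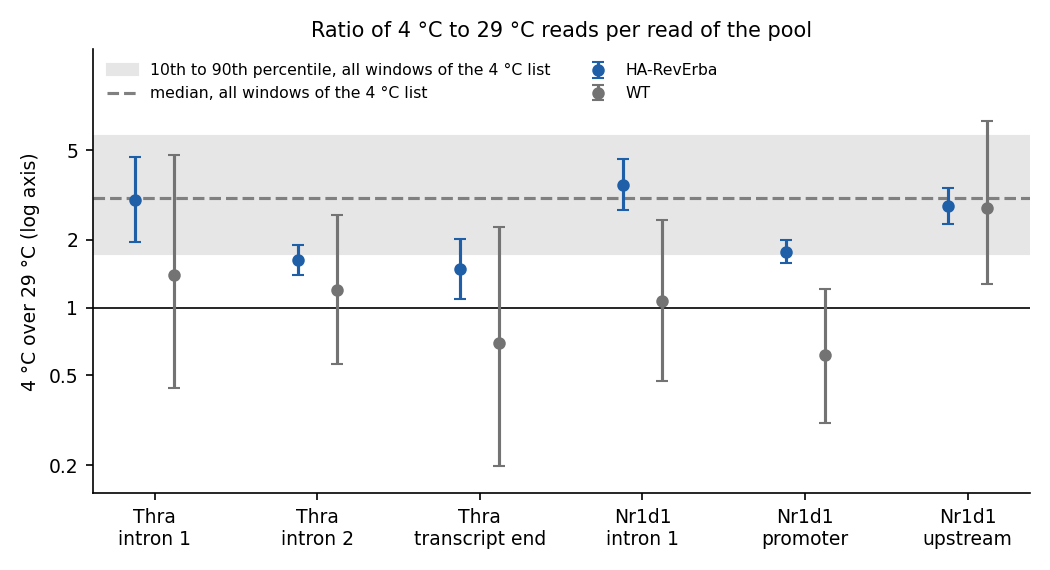
Ratio of 4 °C to 29 °C reads per read of the pool (log axis) for HA-RevErba and for WT at each site; bars are exact 95% counting intervals, and grey shows all windows of the 4 °C list. HA-RevErba ratios run from 1.48 at the Thra transcript end (0.866 with WT reads over the 29 °C windows set equal, when Thra intron 2 is also below 1, at 0.951) to 3.50 in Nr1d1 intron 1, and the WT ratio is apart from 1 only at the upstream site (2.77).

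Ratios of one site over another do not depend on how the pools are scaled. Of the 15 pairs of sites, 9 had a relative ratio with an interval apart from 1 and 6 had one that included 1. The share among pairs of other windows was not determined, here or with WT divided out below. The counts therefore show nothing particular to this locus. The pairs share sites and are not independent, and the intervals are not adjusted for their number. Nr1d1 intron 1 had a ratio 1.98 times that of the promoter 1.55 kb away (1.49 to 2.65), and the upstream site 1.59 times (1.27 to 1.98). Thra intron 1 was at 1.69 times the promoter's ratio (1.09 to 2.68). Thra intron 2 (0.917, 0.754 to 1.12) and the Thra transcript end (0.835, 0.599 to 1.17) had intervals against the promoter that included 1. All 9 pairs apart from 1 set a site of the first 3 (Nr1d1 intron 1, Nr1d1 upstream, Thra intron 1) against a site of the other 3. This division was seen in the ratios themselves and describes these pools. It did not hold throughout with the WT background taken in. With each ratio divided by the WT ratio of its window, 2 of the 15 pairs had an interval (on a log scale, assuming Poisson reads) apart from 1. The 6 to 27 WT reads per window widen these intervals, so the lower count does not by itself show that ratios changed. With WT divided out, the upstream site had 0.352 times the promoter's ratio (0.129 to 0.966), the opposite order. Nr1d1 intron 1 had 1.14 times the promoter's ratio (0.414 to 3.15). In the windows of the 29 °C list the upstream site had 1.30 times the promoter's ratio (1.05 to 1.61), less than in those of the 4 °C list.

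The same HA-RevErba reads, given as shares of the row, differed between the temperatures. WT reads were not taken off, and at the upstream site the WT ratio was 2.77 (1.27 to 6.70). The promoter held 35.8% (33.8 to 37.9) of the 2192 HA-RevErba reads in the 6 windows at 4 °C and 41.2% (38.2 to 44.3) of the 1027 at 29 °C. Nr1d1 intron 1 held 12.7% (11.4 to 14.2) at 4 °C and 7.40% (5.87 to 9.18) at 29 °C. The upstream site held 21.4% (19.7 to 23.1) and 15.5% (13.3 to 17.8), and Thra intron 2 held 20.8% (19.1 to 22.6) and 26.1% (23.4 to 28.9). Summed over all 6 windows, the ratio was 2.04 (1.89 to 2.19) for HA-RevErba and 1.14 (0.827 to 1.57) for WT. By gene it was 2.15 (1.97 to 2.35) for the 4 windows of Nr1d1 and 1.76 (1.53 to 2.03) for the 2 of Thra. With WT reads over the windows of the 29 °C list set equal, the sums gave 1.26 (1.15 to 1.38) for Nr1d1 and 1.03 (0.894 to 1.19) for Thra.

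WT values at the 4 strongest sites were above the medians of all windows. At the promoter, the upstream site, Nr1d1 intron 1 and Thra intron 2 the WT values ran from 2.77 to 4.99 FPKM at 4 °C and from 1.80 to 4.79 at 29 °C. The medians over all windows of the 4 °C list were 1.12 and 1.21, and those over the 337 windows with a score of at least 43.8, the lowest score of the 4 sites, were 2.22 and 1.80. An interval of the WT ratio apart from 1 occurred at 1 of the 6 sites and at 3.55% of all windows. With 6 to 27 WT reads per window, smaller differences were not detectable at this depth.

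Peaks at both temperatures were listed for 3 of the 6 sites, against 14.9% of the 4 °C list. Of the 337 windows with a score of at least 43.8, the score of Nr1d1 intron 1, 277 (82.2%) overlapped a 29 °C peak. Of the 4 Nr1d1 and Thra windows among them, 3 did and Nr1d1 intron 1 did not. By the choice of this limit Nr1d1 intron 1, at rank 333, has the lowest score of these windows. Windows of a score like its own were not looked at apart. The median ratio of these 337 windows was 2.14 (10th to 90th percentile, 1.38 to 3.51), so that the ratio of Nr1d1 intron 1 was close to the upper of these percentiles.

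**Figure D4:**
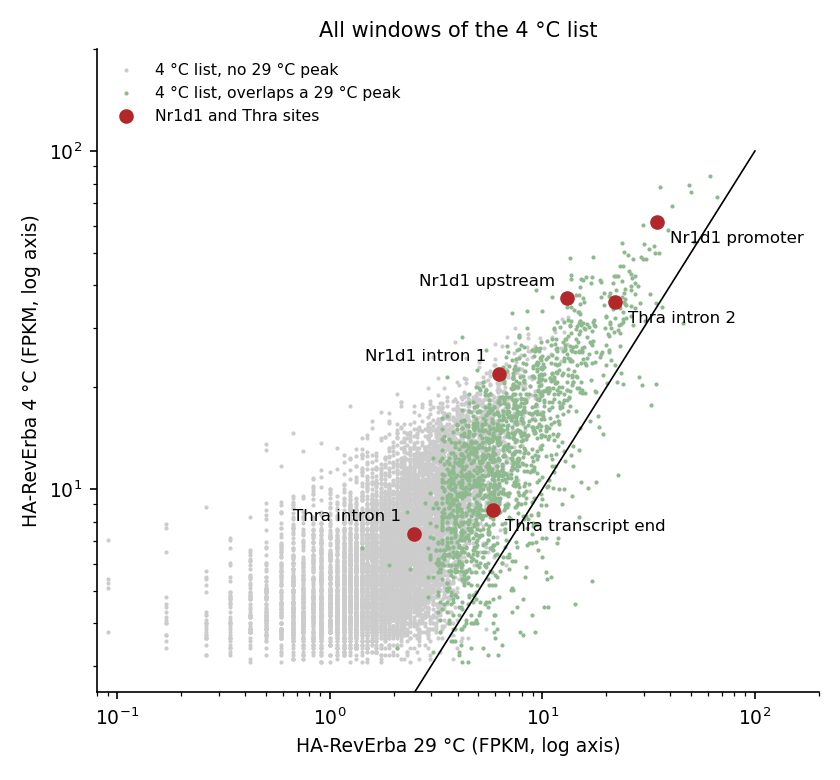
HA-RevErba read density (FPKM, log axes) at 29 °C (horizontal) and at 4 °C (vertical) in all 11227 windows of the 4 °C list; green windows overlap a 29 °C peak, red points are the 6 sites of Nr1d1 and Thra, and the line marks equal values. All 6 lie above the line (with WT reads over the 29 °C windows set equal, Thra intron 2 and Thra transcript end would not, at 0.951 and 0.866), with Thra transcript end (8.64 at 4 °C and 5.85 at 29 °C) nearest to it.

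The 6 peaks of the row lay within 37.6 kb. Of the 11227 peaks of the 4 °C list, 106 (0.944%) opened a stretch of the same length with at least 6 peaks, and the most in any stretch was 9. In the 29 °C list, 69 of 2183 peaks (3.16%) opened one with at least 3. Nr1d1 was among 756 of 5451 genes (13.9%) with at least 4 peaks at 4 °C, where the median gene had 1, and Thra among 45.4% with at least 2. At 29 °C Nr1d1 was among 24.4% of 1629 genes with at least 2 peaks, and Thra had 1, as all these genes have at least. The row did not end with Nr1d1. A further peak, annotated to Msl1, the next gene and a subunit of a histone acetyltransferase complex, lay 2.36 kb beyond the upstream site (chr11:98647092-98647292). HA-RevErba binding there was 25.65 FPKM in the cold and 13.83 at thermoneutrality, where WT had 4.8 and 2.60. Its ratio was 1.86 (1.54 to 2.25), and it was in both lists. On the Thra side the next 4 °C peak was 52.0 kb away, assigned to Csf3, and Med24, the gene between Csf3 and Thra, had no peak in either list.

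Among the 22 core clock genes, Nr1d1 was 1 of 17 with a 4 °C peak and 1 of 5 with a 29 °C peak. The shares of all protein-coding genes were 20.9% and 6.05%. At the highest-scoring site of each of the 17 genes the median ratio was 2.82, against 3.04 over the 5451 genes of the 4 °C list. The promoter of Nr1d1, at 1.77, was below that median, as was Npas2 (1.36, 1.24 to 1.50), a partner of BMAL1, while Arntl, the BMAL1 gene, was at the median. In the cold the Nr1d1 promoter had 61.57 FPKM, against a median of 12.16 over the 17 sites, and strength was not accounted for. Nr1d2, the paralogue of Nr1d1, had no peak assigned in either list. Rora, the gene of a competing ROR receptor, had 6 peaks, at 4 °C only. Its strongest site had 6.68 FPKM in the cold and 2.23 at thermoneutrality, where WT had 1.67 and 1.01. The clock list and the next one were chosen with earlier results of these data known.

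Among 19 genes of thyroid hormone signalling, RXR partners and corepressors, Thra was 1 of 12 with a 4 °C peak and 1 of 9 with a 29 °C peak. The shares of all protein-coding genes were again 20.9% and 6.05%. The median ratio at the strongest sites was 2.95. Thra's own 1.62 was the lowest of the 12. Its site was also the strongest of them, with 35.77 FPKM in the cold against a median of 12.71, and strength was not accounted for. Thrb, which encodes the thyroid hormone receptor beta, had 12 peaks at 4 °C and 2 at 29 °C. Its strongest site lay 81.8 kb from the start site, with 12.71 FPKM in the cold and 2.48 at thermoneutrality, where WT had 0.38 and 0.21 (ratio 5.15, 3.47 to 7.88). The strengths of these sites differ, and the difference in ratio between Thra and Thrb was not tested. Ncor1, the corepressor gene of Rev-Erba, had 1 peak assigned, in the cold, with 6.68 FPKM, and 1.82 at thermoneutrality, where WT had 1.67 and 1.80. That peak lay 7.47 kb upstream of the Ncor1 start site, in an intron of an annotated transcript.

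The genes whose strongest sites were most like that of Nr1d1 over the 4 pools were Dhrs3, Irf2bp2, Cry1, Mir378a and Mir6995. Genes are those the authors' annotation assigns. The sites of Dhrs3 and Irf2bp2 were intergenic, 68.8 and 143 kb from the start sites. Those of the others lay in introns of annotated transcripts, 14.1 to 28.9 kb from the start site of the assigned gene. Likeness was the Euclidean distance of log2(FPKM + 0.5) over the 4 pools, and it was 0.26 for Dhrs3 and 0.72 to 0.78 for the others. Dhrs3, a retinaldehyde reductase gene, had 58.43 FPKM in the cold and 38.91 at thermoneutrality, where WT had 2.77 and 4.20. Cry1, a clock repressor gene, had 78.19 and 35.87, where WT had 4.25 and 3.40. For Thra the most alike genes were Col6a2, Litaf, Rnmtl1, Rgl1 and Zfp652, at distances of 0.26 to 0.43. Their sites lay 19.0 to 70.6 kb from the start site of the assigned gene. Their ratios ran from 1.52 at Litaf to 2.40 at Zfp652. The strongest sites of these 10 genes all had a peak in both lists, and the 4 pools are shared by all of them.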

How the data were processed

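Chromatin immunoprecipitation reads of 12 libraries were pooled by the authors before peaks were listed, per the file headers. The submitters' processing notes list Bowtie2 2.1.0, HOMER 4.10 and build mm9 but do not say what each did. The labels and headers state no settings of the peak calling. The deposited aligner logs gave the reads per library, of which 2.54% to 7.37% did not align. The authors' FPKM divide the reads of a window by its length in kilobases and by the M reads of the pool, with 0.01 added. The peak score is the authors' own. The columns the headers call minus input equal the HA-RevErba FPKM minus the WT FPKM.

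Every FPKM, less 0.01, was a whole multiple of a step per pool (100.0% within 0.01 FPKM), which gave the reads. The pools held 39.5% to 49.8% of the aligned reads of their libraries. In them 3 reads correspond to 0.235 (HA-RevErba 4 °C), 0.247 (HA-RevErba 29 °C), 0.553 (WT 4 °C) and 0.598 FPKM (WT 29 °C). No molecular identifiers are recorded and reads may repeat a molecule, so intervals cover counting error only. The recovery and the intervals were tested on simulated data.

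Python 3.11.15, numpy 2.4.6, pandas 2.3.3 and scipy 1.17.1 were used. Peaks were shared when they overlapped by at least 1 bp, and shared sites were measured in their 4 °C window. Relative ratios are conditional odds ratios with exact intervals. Those with WT divided out, and the ratios of folds over WT, have approximate intervals on a log scale that assume Poisson reads. Coordinates are as the files print them, whose counting base (0 or 1) was not established. Gene names, neighbours and promoter sequences came from RefSeq (GRCm38.p6), which held 5447 of 5451 gene IDs of the 4 °C list. Its coordinates were not set against those of the peaks. The members and gene lists were chosen with earlier results of these data known. Named genes were Nr1d1 and Thra, every gene with a peak within 250 kb of their sites, 8 listed clock and receptor genes (1 of them not reported here), and the 5 genes most alike each. Med24, and the genes named for having no marker peak (Prdm16), were added after their values were seen. Alternatives were a stricter threshold, other overlaps, scalings, windows, pseudocounts, a read minimum and WT subtraction. Division by the WT ratio of the window, the scalings of summed windows, and relative ratios and folds in the 29 °C windows were added after the data had been seen.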

Additional observations from a re-analysis of the deposited data

How the results depend on the processing

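The count of sites was 5 of 6 at 4 °C and 3 of 3 at 29 °C with peaks at least 6 FPKM over WT, and the same with peaks at least 6 times WT. Sites in both lists numbered 2 in place of 3 with an overlap of at least 100 bp, since the upstream peaks overlapped by 97 bp, and 3 with centres within 500 bp. Of 51 alternative ratios, 34 stayed within the counting interval, 15 left it and 2 turned below 1. Both turned with equal WT reads over the windows of the 29 °C list, a scaling by 1.71 (0.77 in log2): Thra intron 2 became 0.951 and Thra transcript end 0.866. Under the same scaling Thra intron 1 was 1.75, Nr1d1 intron 1 2.05, the promoter 1.04 and the upstream site 1.65. With equal WT reads over shared windows (divided by 1.44) they were 1.13 at Thra intron 2, 1.03 at Thra transcript end, 2.43 at Nr1d1 intron 1, 1.23 at the promoter and 1.95 upstream. Divided by the WT ratio of the same window, chosen after seeing the data, they were 1.36 at Thra intron 2, 2.13 at Thra transcript end, 2.87 at the promoter and 1.01 upstream. WT subtraction gave 5.22 at Nr1d1 intron 1, and the 29 °C window 2.24 upstream. Scaling by aligned reads (divided by 0.986), by WT over 4 °C windows (1.02) and both pseudocounts kept every ratio within its interval. With at least 20 reads in both HA-RevErba pools, 8105 windows remained and the ratio percentiles became 63.0 for Thra intron 1, 78.4 for Nr1d1 intron 1 and 56.2 upstream. With 1 FPKM added, 5 of 5 genes most like Nr1d1 and 4 of 5 most like Thra stayed the same. Libraries could not be left out, because the values are of pools. No paired analysis was possible because the values are of pools and come from no test.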

Other observations

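Within 250 kb of the sites, other peaks of the 4 °C list were annotated to Ikzf3, Ormdl3, Csf3, Msl1 and Rara, and Msl1 was the only gene among them with a peak in the 29 °C list. Ormdl3, a regulator of sphingolipid synthesis, had HA-RevErba binding of 16.09 FPKM in the cold and 3.22 at thermoneutrality, where WT had 2.41 and 2.60 (ratio 5.01, 3.54 to 7.25). Rara, the gene of the retinoic acid receptor alpha and a further nuclear receptor gene of this chromosome, had 3 peaks. The strongest, 4.52 kb from its start site, had 12.32 FPKM in the cold and 2.23 at thermoneutrality, where WT had 2.04 and 1.01 (ratio 5.54, 3.67 to 8.68). A weaker one, 8.24 kb from it, had 4.01 and 3.05 FPKM, where WT had 0.56 and 0.81 (ratio 1.31, 0.844 to 2.06). For Csf3, the gene of a granulocyte growth factor, the assigned window lay 7.24 kb from its start site, in intron 9 of 11 of an annotated transcript. The window had 4.17 FPKM in the cold and 0.75 at thermoneutrality, where WT had 0.75 and 1.01 (ratio 5.62, 2.75 to 12.9). At Ikzf3, a lymphoid factor gene, it had 5.81 and 1.65 FPKM, where WT had 1.30 and 0.41.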
